A study of Mus musculus with 24 samples.

Results

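Collagen genes of isolated mouse quadriceps myofibers were followed through 8 lists of H3K27ac peaks, 1 list for each combination of sex and treatment. The members were the autosomal mouse genes with curated protein-coding RefSeq transcripts (mm10) whose symbol is Col, a number, the letter a and a number, and 42 of 20021 such protein-coding genes were members. Of these, 11 encode fibrillar chains, 6 encode chains of the basement membrane (Col4a1 to Col4a4, Col15a1 and Col18a1), and 25 encode other chains, among them 6 of type VI, 9 FACIT collagens and 4 transmembrane collagens. FACIT collagens are chains with interrupted triple helices that sit on the surface of fibrils.

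The mice were C57BL/6 and had received vehicle or 5 weekly injections of prednisone, a synthetic glucocorticoid, at 1 mg/kg, begun at 10 weeks of age. Quadriceps were taken from prednisone-treated males and females 4, 6 or 8 days after the last injection, and from vehicle-treated males and females, for whom no day after injection is given. The muscle was digested with collagenase II and filtered, and the acetylated chromatin of the fibers was precipitated and sequenced, with 2 H3K27ac libraries and 1 input library behind each of the 8 lists. No value per library was used here, so differences between groups come without replicate error and were not tested, and every interval below covers counting error only.

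Collagens are secreted as triple helices and assembled outside the cell. Fibrillar types I, III and V build the fibrils of the epimysium, perimysium and endomysium, whereas type IV forms the sheet of the basement membrane around each muscle fiber, and type VI forms beaded filaments beside it. In muscle the fibrillar chains are made mainly by fibroblasts, and mutations of type VI genes cause Bethlem and Ullrich myopathies. H3K27ac, acetylation of lysine on histone H3, marks active promoters and enhancers. A chain of the matrix can therefore be followed at the level of its gene's chromatin, although a peak does not measure messenger RNA or protein.

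Shown first are 5 promoters, because their genes span the range of results, from a peak at the start in all 8 lists to none. They are RefSeq sequences of build GRCm38.p6, written in the direction of the gene, and capitals mark matches, on either strand, to the CCAAT box, to GGGCGG (Sp1), to the TATAAA box or to the E-box CAGCTG. The other 4 are the 250 bases before the transcription start, and Col4a2 is given by 30 bases around its CCAAT match because the sequence before its start is transcribed from Col4a1 on the other strand. None of the 5 held the glucocorticoid receptor consensus ACANNNTGT. The numbers of lists are counted by gene. Col18a1 has 2 curated starts, and over the start of the promoter printed here a peak lay in females at day 6 alone.
Col4a2, start peak in 8 lists, chr8:11312756-11312785, plus strand: gCCGCCCgaggagctccCCAATttgttggc
Col5a1, start peak in 5 lists, chr2:27886175-27886424, plus strand: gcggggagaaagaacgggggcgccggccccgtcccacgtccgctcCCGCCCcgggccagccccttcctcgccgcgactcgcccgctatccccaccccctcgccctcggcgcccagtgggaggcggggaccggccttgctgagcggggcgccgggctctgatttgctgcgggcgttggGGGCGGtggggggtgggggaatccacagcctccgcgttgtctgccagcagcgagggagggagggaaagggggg
Col1a2, start peak in 3 lists, chr6:4505368-4505617, plus strand: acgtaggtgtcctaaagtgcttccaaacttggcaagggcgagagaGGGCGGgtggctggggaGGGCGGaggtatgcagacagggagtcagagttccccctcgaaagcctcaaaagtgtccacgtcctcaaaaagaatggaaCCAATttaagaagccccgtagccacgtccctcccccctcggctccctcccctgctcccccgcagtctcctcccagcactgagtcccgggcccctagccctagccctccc
Col18a1, start peak in 3 lists, chr10:77166531-77166780, minus strand: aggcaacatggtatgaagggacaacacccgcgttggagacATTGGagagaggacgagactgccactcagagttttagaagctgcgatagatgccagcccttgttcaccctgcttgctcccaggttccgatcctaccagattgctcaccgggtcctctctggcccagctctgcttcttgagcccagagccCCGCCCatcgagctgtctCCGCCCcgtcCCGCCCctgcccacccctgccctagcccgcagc
Col17a1, start peak in 0 lists, chr19:47692043-47692292, minus strand: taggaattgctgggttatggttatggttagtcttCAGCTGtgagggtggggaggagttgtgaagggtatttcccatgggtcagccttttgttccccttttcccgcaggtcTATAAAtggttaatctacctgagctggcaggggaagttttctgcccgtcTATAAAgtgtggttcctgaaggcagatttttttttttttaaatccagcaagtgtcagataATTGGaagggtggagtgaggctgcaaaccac

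Peaks near collagen starts were found at more collagen genes in the female prednisone lists than in the female vehicle list, and at fewer in the male prednisone lists than in the male vehicle list. A peak counted when at least 1 bp of it lay within 10 kb of a curated transcription start. In females 15 of the 42 genes had such a peak with vehicle (35.7%, against 46.8% of all genes), 35 at day 4 (83.3%, against 68.7%), 39 at day 6 (92.9%, against 79.6%) and 35 at day 8 (83.3%, against 73.2%). In males 33 had one with vehicle (78.6%, against 74.6% of all genes), 11 at day 4 (26.2%, against 43.2%), 13 at day 6 (31%, against 45.5%) and 13 at day 8 (31%, against 45.9%). All genes together moved in the same direction as the collagens in each sex, and the collagen share lay above that of all genes in the female prednisone lists and the male vehicle list, and below it in the other 4 lists.

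The lists differed in length and depth, and the count of collagen genes moved with their length. The 4 lists of 67503 to 123249 peaks had 33 to 39 collagen genes with a peak within 10 kb, and the 4 lists of 17482 to 38861 peaks had 11 to 15. Depth ran from 7.52 to 50.5 M H3K27ac tags (M, megatags) and did not follow the same order. The male day 4 list was the shortest and the shallowest, whereas the male day 6 list, the deepest, held 32188 peaks with 5.39% of its tags in them, against 47.3% in females at day 6. When every list was reduced to its 17482 peaks of highest findPeaks score, 9, 11, 13 and 16 collagen genes had a peak within 10 kb in the female lists (vehicle and days 4, 6 and 8), and 11 had one in each of the 4 male lists. The difference in these counts between vehicle and prednisone was thus 0 in males and smaller than with all peaks in females. Scores are whole numbers, and the cut could fall among peaks of equal score. In vehicle-treated females Col3a1, Col6a1, Col9a3 and Col24a1 each had 1 peak within 10 kb, at a score of 11. Col3a1 was left out and the others were kept, so these counts depend in part on the order of tied peaks. A high score did not always go with dense tags. The peak over the Col4a1 and Col4a2 starts was left out in females at days 6 and 8, at scores of 15 and 17. Its tags per kb there stood at percentiles 96.3 and 91.1 of all peaks. In the shortened lists the collagen share lay below that of all genes in all 8, whereas with all peaks it lay above in 4. The share of all genes in the shortened female lists was 33.5%, 42.3%, 43.1% and 42.9%, so it also rose from vehicle. In the male lists it was 42.8%, 43.2%, 38.1% and 44.1%.

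**Figure D1:**
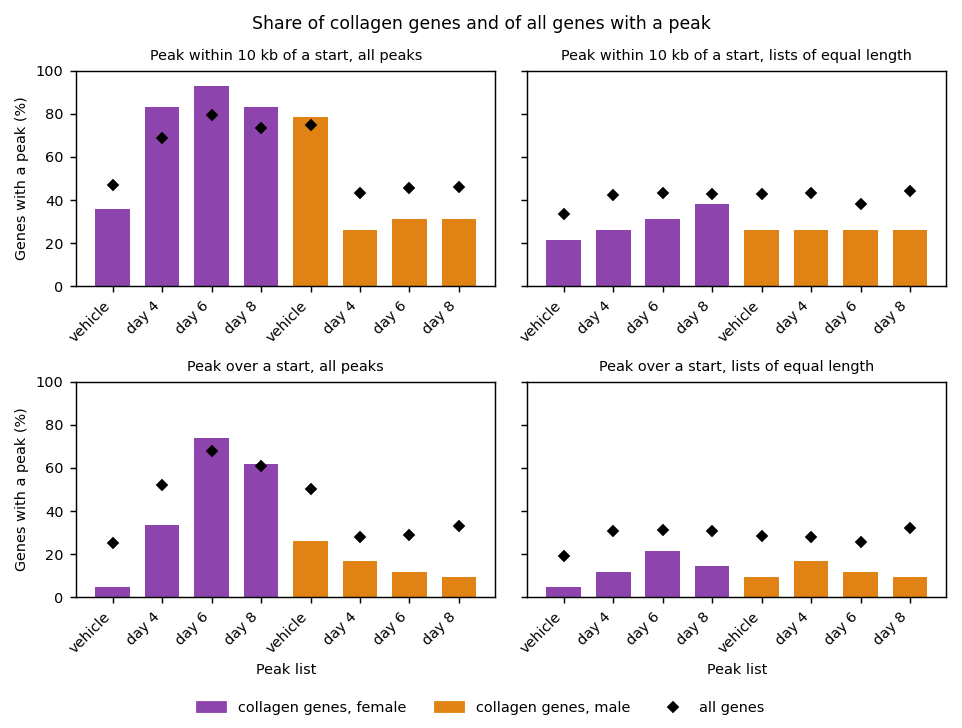
Percentage of genes with a peak (vertical axis) in each of the 8 lists (horizontal axis), within 10 kb of a start (upper panels) and over a start (lower panels). Bars are the 42 collagen genes (purple, female; orange, male) and diamonds are all 20021 genes; with all peaks the bars reach 92.9% in females at day 6, whereas with lists of equal length (right) every bar lies below its diamond.

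Peaks over the starts themselves were also at more collagen genes after prednisone than with vehicle in females, and at fewer in males. A start peak overlapped the start span, which runs from 1 kb upstream of a curated start to 100 bp downstream, and in females it was found at 2 collagen genes with vehicle (4.76%, against 25.0% of all genes), 14 at day 4 (33.3%, against 52.0%), 31 at day 6 (73.8%, against 68.0%) and 26 at day 8 (61.9%, against 60.8%). The only collagen genes with a start peak in vehicle-treated females were Col4a1 and Col4a2, which encode the chains of the commonest type IV collagen. In males a start peak was found at 11 genes with vehicle (26.2%, against 50.3%), 7 at day 4 (16.7%, against 28.0%), 5 at day 6 (11.9%, against 28.9%) and 4 at day 8 (9.52%, against 32.9%). With lists of equal length these counts were 2, 5, 9 and 6 in females and 4, 7, 5 and 4 in males, in the order vehicle, day 4, day 6 and day 8. The shares of all genes were then 19.3%, 30.9%, 31.4% and 30.8% in females and 28.4%, 28.0%, 25.6% and 32.3% in males.

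Start peaks are given next by class of chain, as counts of few genes that were not tested against each other. Of the 11 fibrillar genes, 0 had a start peak in vehicle-treated females and 7, 9 and 6 had one at days 4, 6 and 8, whereas 3 had one in vehicle-treated males and 3, 2 and 2 at days 4, 6 and 8. The 6 basement membrane genes all had a start peak in vehicle-treated males and in females at days 6 and 8, and 2 had one in each of the other 5 lists. Among the 25 other collagens 0 had a start peak in vehicle-treated females, and 5, 16 and 14 had one in females at days 4, 6 and 8, against 2 in vehicle-treated males and 2, 1 and 0 in males at days 4, 6 and 8. With lists of equal length, in the order vehicle, day 4, day 6 and day 8, the fibrillar counts were 0, 2, 1 and 1 in females and 0, 3, 2 and 2 in males. The basement membrane counts were then 2, 2, 4 and 1 in females, Col18a1 being the gene left at day 8, and 4, 2, 2 and 2 in males. Those of the other collagens were 0, 1, 4 and 4 in females and 0, 2, 1 and 0 in males.

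**Figure D2:**
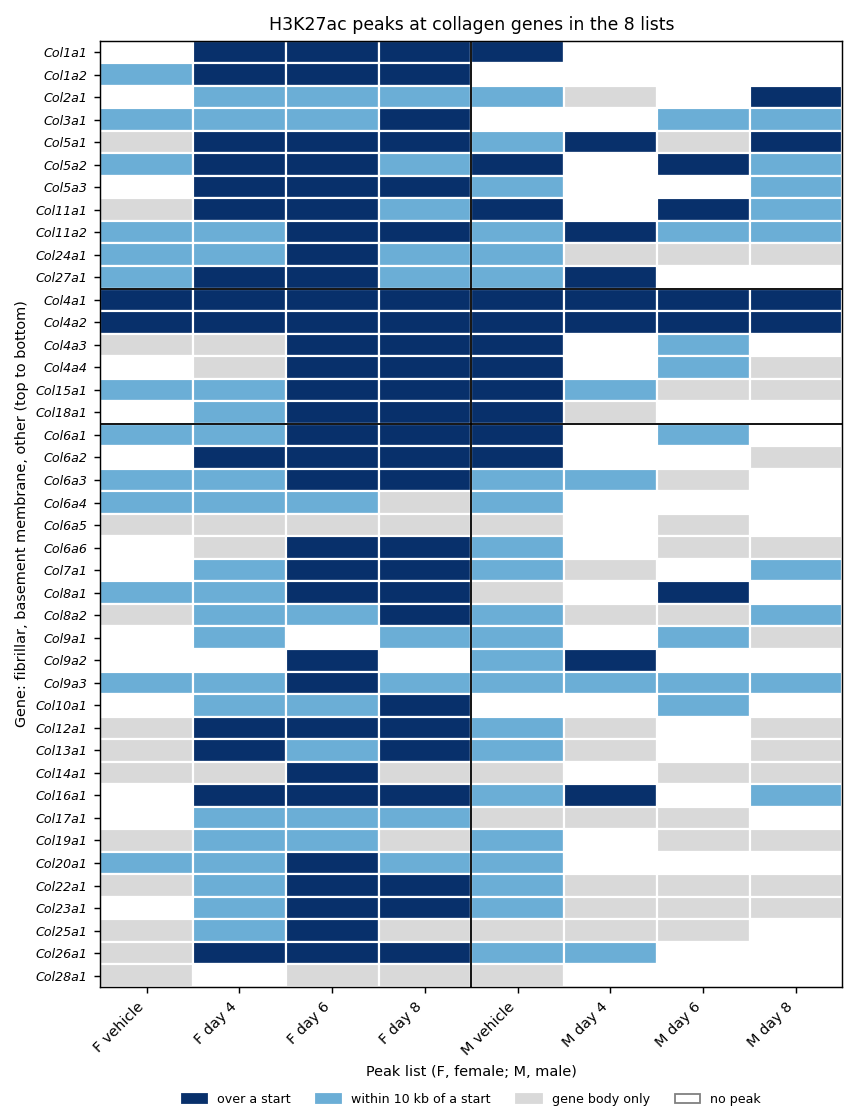
H3K27ac peaks at the 42 collagen genes (rows, fibrillar above, basement membrane in the middle and other collagens below) in the 8 lists (columns, F for female and M for male). Dark blue marks a peak over a start, light blue a peak within 10 kb of a start, grey a peak in the gene body alone and white no peak; Col4a1 and Col4a2 are dark blue in all 8 columns, and the female day 6 column has the most dark cells, 31.

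Against vehicle, 20 collagen genes gained a peak within 10 kb in females at day 4 and 0 lost one, where 26.3% of all genes gained and 4.41% lost one. At day 6 24 gained and 0 lost (35.7% and 2.83% of all genes), and at day 8 21 gained and 1 lost (30.0% and 3.62%). The gene lost at day 8 was Col6a4, a type VI chain. In males 0 gained and 22 lost at day 4 (1.38% and 32.8% of all genes), 3 gained and 23 lost at day 6 (2.75% and 31.8%), and 1 gained and 21 lost at day 8 (1.92% and 30.6%). Col3a1, the type III chain, was gained in males at days 6 and 8, and Col8a1 and Col10a1, which encode network-forming short chains, at day 6. The 3 comparisons of a sex share their vehicle list and are not independent of each other. With lists of equal length females gained 5, 10 and 9 genes and lost 3, 6 and 2 at days 4, 6 and 8, and males gained 5, 8 and 6 and lost 5, 8 and 6. The shares of all genes that gained or lost a peak in these lists are not given.

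Col1a1 and Col1a2 encode the chains of type I collagen, the main fibril of the muscle matrix. Col1a1 (chr11:94936224-94953042) had no peak within 10 kb of its start in vehicle-treated females, 4 peaks at day 4, 4 at day 6 and 5 at day 8, and in males it had 1 with vehicle and 0 at each later day. The start peak of females at day 4 was 500 bp long, with 32 H3K27ac tags and 5 input tags, a fold over input of 3.29 after scaling for depth (95% interval 1.27 to 10.8). At day 6 the start lay in a peak of 5895 bp (418 tags, fold 5.95, 4.65 to 7.70) and at day 8 in one of 1203 bp (106 tags, fold 9.09, 4.26 to 23.2). The male vehicle peak (122 tags, fold 3.25, 2.18 to 5.00) lay before the start, with its center at -1.88 kb.

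At the start of Col1a2 (chr6:4505618-4541543) a peak was called in the 3 female prednisone lists and in no other list. It was 630 bp long at day 4 (38 tags, fold 3.91, 1.54 to 12.7), 1756 bp at day 6 (142 tags, fold 7.32, 4.61 to 12.2) and 1740 bp at day 8 (125 tags, fold 10.7, 5.05 to 27.2). In vehicle-treated females the single peak within 10 kb was centered at -2.55 kb and rested on 29 tags (fold 3.53, 1.24 to 13.8). Males had no peak within 10 kb of Col1a2 in any of their 4 lists. These intervals overlap one another, and folds of different lists were not compared as levels of acetylation.

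The fibrillar chain of type III, Col3a1 (chr1:45311538-45349706), forms thin fibrils together with type I. It had 1 peak within 10 kb of its start in each female list apart from day 8, which had 2, and in males it had 0 with vehicle and at day 4 and 2 at days 6 and 8. The peaks were short and rested on few tags. The strongest of each list had 18 to 33 H3K27ac tags and 1 to 3 input tags. In the female day 8 list alone a peak lay over the start, with 17 H3K27ac tags and 0 input tags, a fold of 3.40 when the input is set at 3 tags. The lower limit of the 95% interval, from the counts as they stood, was 2.48.

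Type V chains regulate the width of type I fibrils. Col5a1 (chr2:27886425-28039510) had a start peak in 5 lists, those of females after prednisone and of males at days 4 and 8. In females at day 6 the strongest peak near its start spanned 7938 bp (890 tags, fold 7.19, 5.99 to 8.69) and at day 8 5973 bp (472 tags, fold 8.10, 5.74 to 11.8). In males at day 4 it was 500 bp long and rested on 8 tags (fold 9.25, 2.48 to 42.0). Col5a2 had a peak within 10 kb in 7 lists, missing at day 4 in males, and its start was marked in females at days 4 and 6 and in males with vehicle and at day 6.

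**Figure D3:**
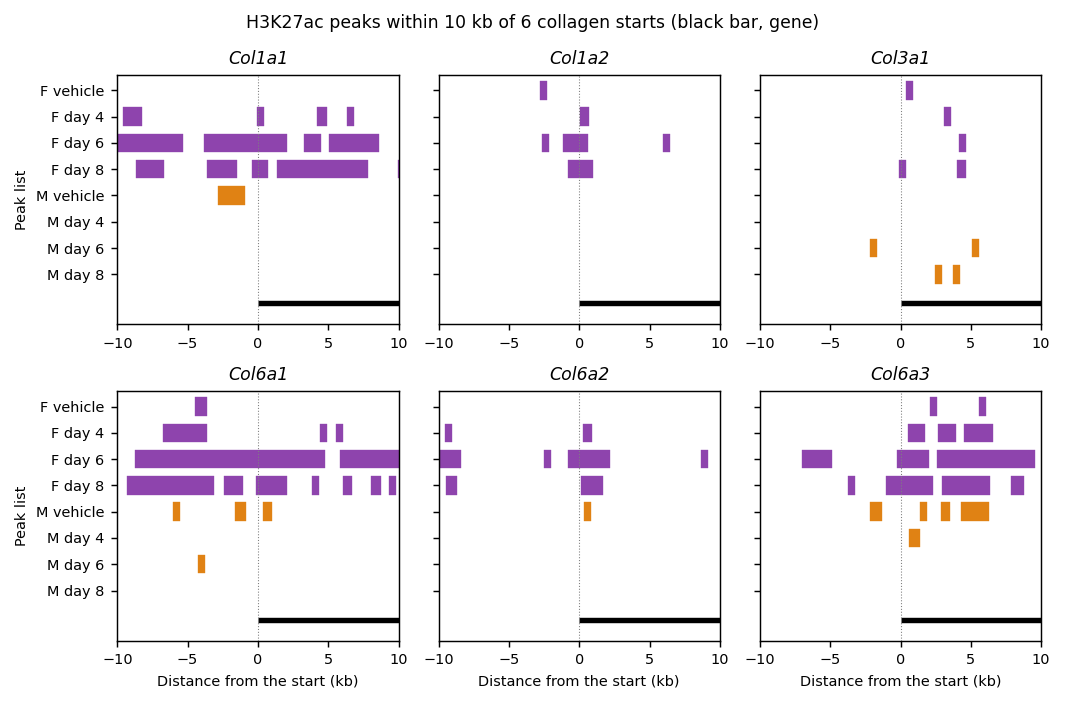
Peaks (boxes) within 10 kb of the start of 6 genes of types I, III and VI, by distance from the start in kb along the direction of the gene (horizontal axis) in the 8 lists (vertical axis; purple, female; orange, male). Col1a2 has no box in the 4 male lists, and Col6a1 and Col6a2 have boxes over or beside the start in females at days 6 and 8.

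The start shared by Col4a1 and Col4a2 was the only collagen start with a peak in all 8 lists. Col4a1 (chr8:11198423-11312826) and Col4a2 (chr8:11312805-11449287) are transcribed in opposite directions from starts 21 bp apart, so that a peak at one start is also a peak at the other. A single peak covered both starts in each of the 8 lists. A start peak in all 8 lists was found at 13.1% of all genes. In females it spanned 1856 bp with vehicle (97 tags, fold 5.90, 2.88 to 14), 5275 bp at day 4 (480 tags, fold 6.86, 4.88 to 9.91), 11287 bp at day 6 (1981 tags, fold 16.1, 13.5 to 19.4) and 9003 bp at day 8 (1011 tags, fold 20.2, 14.1 to 30.1). In males it spanned 2295 bp with vehicle (310 tags, fold 6.93, 4.92 to 10), 1322 bp at day 4 (36 tags, fold 11.9, 6.26 to 23.9), 2649 bp at day 6 (290 tags, fold 2.26, 1.68 to 3.11) and 2608 bp at day 8 (233 tags, fold 6.49, 4.18 to 10.5).

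The peak at the Col4a1 and Col4a2 starts was thus longest in females at day 6 and shortest in males at day 4. Within its own list its tags per kb stood at percentile 61.8 of all peaks in vehicle-treated females, at percentile 79.2 in males at day 4 and between percentiles 91.1 and 98.2 in the other 6 lists. In the lists of equal length, ranked by findPeaks score, this peak was not retained in females at days 6 and 8, where its score was 15 and 17.

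Peaks were also spread through the bodies of both genes. Col4a2 had 10, 28, 28 and 31 peaks over its body in females and 40, 12, 9 and 8 in males, in the order vehicle, day 4, day 6 and day 8. Col4a1 had 9, 24, 24 and 28 in females and 22, 5, 16 and 4 in males. An intronic stretch of Col4a2, chr8:11366172-11399758, also held peaks of all 8 lists, merged where they overlapped into 33586 bp, with its center 70.2 kb after the start.

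**Figure D4:**
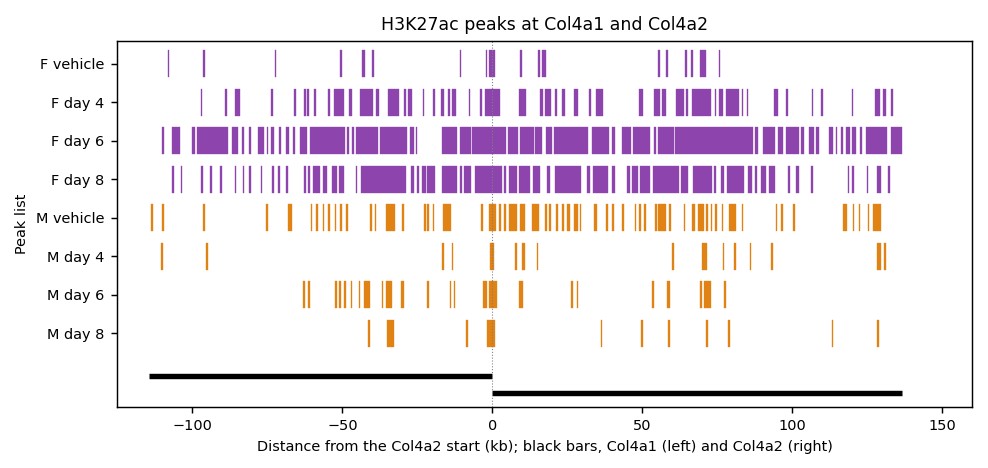
Peaks (boxes) over Col4a1 and Col4a2 by distance from the Col4a2 start in kb (horizontal axis) in the 8 lists (vertical axis; purple, female; orange, male), with the genes as black bars. Each list has a box over the shared start, and the box over the shared start is longest in females at days 6 and 8, 11287 and 9003 bp.

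The minor type IV chains behaved differently. Col4a3 and Col4a4, which are best known from the glomerular basement membrane, start 72 bp apart and also share a peak. It was called in females at day 6 (85 tags, fold 4.84, 2.92 to 8.43) and day 8 (62 tags, fold 5.32, 2.43 to 13.8) and in vehicle-treated males (40 tags, fold 4.73, 2.09 to 12.5). In the male day 6 list a peak of 29 tags lay within 10 kb but not over either start, and the other 4 lists had none.

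Col15a1 and Col18a1 encode the multiplexins, chains with long interruptions and sugar side chains; the end of the type XVIII chain is released as endostatin. Both had start peaks in females at days 6 and 8 and in vehicle-treated males, the same lists as Col4a3 and Col4a4. Col15a1 (chr4:47208012-47313165) had 1, 2, 6 and 2 peaks within 10 kb in females and 4, 1, 0 and 0 in males, in the order vehicle, day 4, day 6 and day 8. Col18a1 (chr10:77052179-77166530) had 0, 2, 9 and 4 in females and 2, 0, 0 and 0 in males. The 9 peaks at day 6 were the most within 10 kb of the starts of any collagen gene in any list, but Col18a1 has 2 curated starts and its windows span more sequence than those of a gene with 1.

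The 3 chains of classical type VI collagen had most of their peaks in the female prednisone lists and in the male vehicle list. Col6a1 (chr10:76708792-76726044) had 1, 3, 2 and 7 peaks within 10 kb in females and 3, 0, 1 and 0 in males, in the order vehicle, day 4, day 6 and day 8. Col6a2 (chr10:76595756-76623630) had 0, 2, 4 and 2 in females and 1, 0, 0 and 0 in males. Col6a3 (chr1:90766860-90843971) had 2, 3, 3 and 4 in females and 4, 1, 0 and 0 in males. At day 6 in females the start of Col6a1 lay in a peak of 13558 bp (1387 tags, fold 8.53, 7.29 to 10), at day 8 in one of 2205 bp (168 tags, fold 11.2, 5.76 to 24.9).

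The other type VI chains had start peaks in 0 to 2 lists. Col6a4 had a peak within 10 kb in 4 lists (females with vehicle and at days 4 and 6, and males with vehicle) but no start peak in any list. Col6a6 had one in 3 lists, and Col6a5 in 0. Col28a1, whose chain carries von Willebrand domains as type VI chains do, was the other collagen gene with no peak within 10 kb in any list, although Col6a5 and Col28a1 had peaks in the gene body in 6 and 4 lists. Without a start peak in any list were Col6a4, Col6a5, Col9a1, Col17a1, Col19a1 and Col28a1 (14.3% of members, against 27% of all genes).

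Col9a3 and Col11a2 had a peak within 10 kb in all 8 lists, as had 25.6% of all genes, but the regions present in every list lay at the starts of other genes. For Col9a3, a FACIT chain of cartilage, the region was chr2:180588518-180591453, centered at -8.24 kb from its start and within 1 kb of the start of Ogfr. The region near Col11a2, a fibrillar chain of cartilage, was chr17:34026717-34034423, within 1 kb of the starts of H2-Ke6, Rxrb and Slc39a7. When only peaks whose nearest start belonged to the member were kept, the counts of collagen genes stayed within 1.5 times their values in all lists, but 1 gene, Col4a2, in place of 4 had a peak within 10 kb in all 8 lists. Col4a1 then had one in 7 lists, Col11a2 in 6 and Col9a3 in 5. The starts of Col4a1 and Col4a2 lie 21 bp apart, so the center of a shared peak decides for which gene it is counted. In the same way Col4a4, whose start is 72 bp from that of Col4a3, went from 4 lists to 0.

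Of the remaining widely marked genes, Col11a1, Col16a1 and Col27a1 had a peak within 10 kb in 6 lists each, and Col20a1 in 5. Col11a1, a fibrillar chain that pairs with type V, had a start peak in females at days 4 and 6 and in males with vehicle and at day 6. Col16a1, a FACIT chain, had one in the 3 female prednisone lists and in males at day 4, where the peak spanned 1607 bp (33 tags, fold 7.63, 4.25 to 14). Col27a1 had one in females at days 4 and 6 and in males at day 4, on 13 tags (fold 6.01, 2.44 to 15.3). The lists with a start peak came from both sexes for these 3 genes, whereas Col20a1 had one in females at day 6 alone.

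Merging the peaks of all 8 lists at collagen genes gave 847 regions, of which 4 held peaks of all 8 lists (0.472%, against 2.42% of the 160627 regions merged in the same way over all genes). Peaks of 1 list alone made up 567 regions (66.9%, against 64.9%), and 246 of these were of females at day 6 (29.0% of all collagen regions, against 23%). In the 3 female prednisone lists and no others were 17 regions at 13 genes (2.01%, against 2.23% over all genes), and 1 region, in an intron of Col22a1 (chr15:71926776-71927916), was found in the 4 female lists only (0.118%, against 0.274%). Col22a1 encodes a FACIT chain of the junction between muscle and tendon. No region was limited to the 4 male lists or to the 3 male prednisone lists, and this was also so over all genes, with 0 of the 160627 regions in either pattern.

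Of those 17 regions, 4 covered the starts of Col1a2, Col7a1, Col12a1 and Col18a1. At Col1a2 and Col12a1 the day 4 peak itself overlapped the start span, but not the start. The region at Col12a1, a FACIT chain bound to type I fibrils, was chr9:79717295-79720703, and that at Col7a1, which forms the anchoring fibrils of skin, was chr9:108952418-108956139. The Col18a1 region, chr10:77165245-77166750, covers the start whose promoter is shown above, through its day 6 peak. Upstream of Col1a1 a region centered at -7.66 kb from the start, chr11:94926230-94930890, had the same pattern. Col4a1 held 3 of the 17 regions and Col4a2 held 1, all in introns.

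Day 4 peaks that overlapped no vehicle peak of the same sex are called prednisone-responsive enhancers (PREs), following the study. In females 183 of the 207 day 4 peaks at collagen genes, in the body or within 10 kb of a start, were PREs (88.4%, against 79.0% of day 4 peaks at all genes). Of these 112 overlapped a peak at day 6 (61.2%, against 57.6% over all genes) and 87 at day 8 (47.5%, against 50.2%). In males 32 of 53 day 4 peaks were PREs (60.4%, against 37.1%), and 0 of them overlapped a peak at day 6 or at day 8 (0%, against 7.75% and 6.63%). A count of 0 of 32 allows a share of up to 9.38%.

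Basement membrane genes held 59 of the female PREs, and most of these lay at Col4a1 and Col4a2. Of the 59, 49 were present at day 6 (83.1%, against 57.6% over all genes) and 42 at day 8 (71.2%, against 50.2%). Fibrillar genes held 45, with 27 present at day 6 (60.0%) and 18 at day 8 (40.0%), and the other collagens held 79, with 36 (45.6%) and 27 (34.2%). Col4a2 had 22 PREs in females, with 20 present at day 6, 19 at day 8 and 18 at both. Col4a1 had 19, with 16, 15 and 12. Among the other basement membrane genes Col15a1 had 9 (7 at day 6 and 6 at day 8) and Col18a1 had 6 (5 and 2). Col4a4 had 2 (1 and 0) and Col4a3 had 1 (0 and 0). All 4 PREs of Col1a1 were present at both days, whereas the 5 of Col6a6 and the 6 of Col25a1, a transmembrane chain of neurons and developing muscle, were present at neither.

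Among female PREs present at both later days, the one with the most tags per kb within its list lay across the end of Col23a1 (chr11:51583341-51585824). Its center was outside the gene, 295 kb from the Col23a1 start. This PRE had 388 H3K27ac tags and 19 input tags (fold 10.5, 6.64 to 17.6) and stood at percentile 99.5 of that list. In the male day 4 list the PREs rested on few tags, and the PRE with the highest fold, in an intron of Col26a1, had 14 H3K27ac and 3 input tags (fold 21.6, 6.02 to 117). PREs were found at 39 collagen genes in females and 21 in males, and 14 female PREs shared at least 1 bp with a male day 4 peak. With lists of equal length the order of the sexes turned, with 30 PREs in females and 49 in males, of which 9 and 3 were present at day 6 and 14 and 3 at day 8. For these counts no share over all genes is given.

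**Figure D5:**
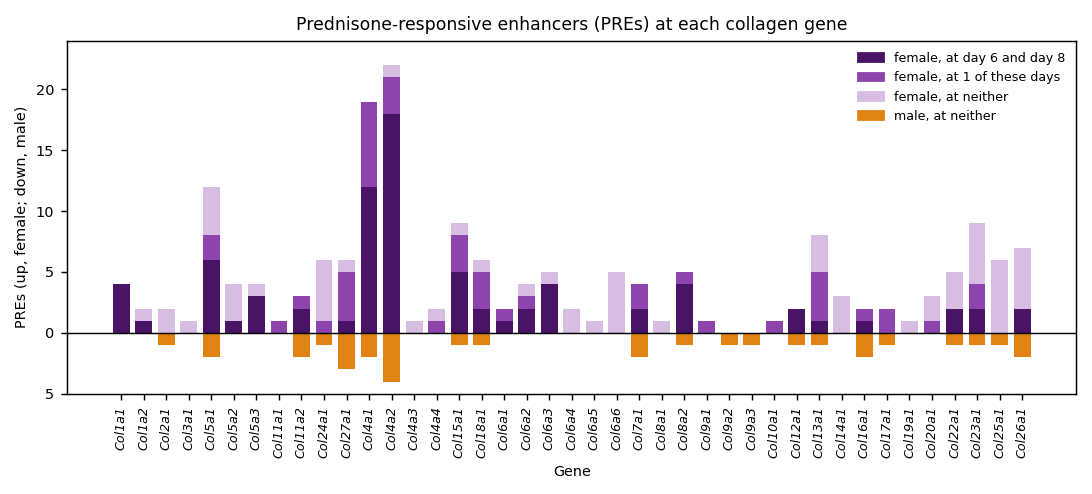
Number of PREs at each collagen gene (vertical axis; females upward, males downward), with female PREs split by presence at days 6 and 8 (shades of purple) and male PREs in orange. Col4a2 and Col4a1 have the tallest bars, 22 and 19, and no male PRE was present at a later day.

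Collagen genes are long, with a median length of 110 kb against 16.9 kb for all genes, so peaks over the body were also counted per length. In females the bodies held 1.71, 3.87, 9.99 and 5.83 peaks per 100 kb with vehicle and at days 4, 6 and 8, against 2.39, 4.97, 9.06 and 6.35 over all genes. In males they held 6.04, 1.04, 1.32 and 0.857, against 5.97, 1.33, 2.23 and 1.55. Per length the collagens were thus below all genes in 6 lists and above them in females at day 6 and, by a small margin, in vehicle-treated males. Without Col4a1 and Col4a2 the value was 9.39 in females at day 6 and 5.01 in vehicle-treated males, so in the latter the direction turned. The basement membrane genes had the most peaks per length of the 3 classes in all 8 lists, with 3.51, 9.84, 16.7 and 13.2 peaks per 100 kb in females and 13.2, 2.83, 4.04 and 2.02 in males. Much of this came from Col4a1 and Col4a2. Without these 2 genes the class had 1.43, 4.28, 14.7 and 7.95 peaks per 100 kb in females and 7.34, 0.815, 1.02 and 0.611 in males, which was below the fibrillar genes in vehicle-treated females (1.82) and in males at days 4 (1.05) and 8 (0.958).

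Counted by gene, at least 1 peak lay over the body of 24, 37, 41 and 41 collagen genes in females (44.8%, 66.8%, 77.8% and 71.7% of all genes) and of 37, 22, 22 and 20 in males (71.5%, 40.0%, 43.2% and 43.7% of all genes). These counts by gene were not adjusted for length. Every collagen gene had a body peak in at least 2 lists, whereas 15.6% of all genes had one in 0 lists and 6.26% in 1. In all 8 lists 7 collagen genes had one (16.7%, against 22.1% of all genes). Besides Col4a1, Col4a2 and Col15a1 these were Col5a1, Col8a2, Col22a1 and Col24a1.

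Promoters of 300 bases, 250 before the start and 50 after it, were at hand for 33 collagen genes (36 promoters) and 19504 promoters over all genes. The consensus ACANNNTGT was found in 1 collagen promoter, that of Col20a1 (2.78%, against 5.91% of all promoters). GGGCGG, the core of the Sp1 site, was in 21 (58.3%, against 48.1%), CCAAT in 12 (33.3%, against 38.0%), TATAAA in 5 (13.9%, against 12.4%) and the E-box CAGCTG in 7 (19.4%, against 15.8%). Motifs were searched on both strands.

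The number of CpG dinucleotides in these 300 bases had a median of 12 in collagen promoters and 14 over all genes. It was 16 in the 17 promoters of collagen genes with a start peak in 3 or more lists and 5.00 in the 13 promoters of genes with a start peak in at most 1 list. Lists were counted by gene. The Col18a1 promoter printed above was thus in the first set, although its own start had a peak in 1 list. The promoters of Col4a1 and Col4a2 had 37 and 33, and those of Col3a1 and Col28a1 had 0. The 2 sets overlapped over most of their range, which ran from 3 (Col6a1) to 37 (Col4a1) in the former and from 0 to 32 (Col8a2) in the latter.

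Inside the PREs themselves ACANNNTGT occurred 0.421 times per kb in the 183 female PREs at collagen genes and 0.315 times per kb over the 39068 female PREs at all genes. It was found in 45 of the 183 (24.6%, against 20.9%). In males it occurred 0.109 times per kb in the 32 PREs at collagen genes (2 matches) and 0.259 times per kb over all genes.

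Genes that act on collagen were likewise marked at more starts in the female prednisone lists and in the male vehicle list. Their counts are given in the order vehicle, day 4, day 6 and day 8. In this order the share of all genes with a start peak was 25.0%, 52.0%, 68.0% and 60.8% in females. It was 50.3%, 28.0%, 28.9% and 32.9% in males. Of 30 genes of collagen biosynthesis and cross-linking, such as prolyl hydroxylases and lysyl oxidases, a start peak was found in 7, 22, 29 and 28 in females and 16, 10, 11 and 9 in males. The beta subunit of prolyl hydroxylase, P4hb, had one in all 8 lists. Of 11 partners in the basement membrane 2, 7, 11 and 10 had a start peak in females and 9, 4, 2 and 7 in males, and Lamb2, the laminin beta 2 chain, had one in all 8 lists. Of 9 collagen receptors 3, 5, 7 and 7 had one in females and 7, 3, 3 and 4 in males, with Dag1, which encodes dystroglycan, in all 8.

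Of 11 genes of collagen degradation 1, 6, 8 and 8 had a start peak in females and 5, 2, 2 and 4 in males. Timp3, an inhibitor of matrix metalloproteinases, had one in 6 lists and Mmp14, a membrane-bound collagenase, in 4. Of 13 genes of TGF-beta signaling, the pathway best known for inducing fibrillar collagens, 6, 12, 13 and 13 had one in females and 11, 5, 8 and 9 in males, with Tgfb3 and Ski in all 8. The counts were therefore lowest with vehicle in females and highest with vehicle in males for each of these 5 lists, as they were for start peaks of all genes.

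Start peaks at markers of other cell types also differed between the lists, and are given in the same order. Of 12 fibroblast markers 2, 4, 8 and 9 had a start peak in females and 1, 4, 2 and 1 in males, with none in any list at Lum and Tcf21. Of 8 markers of smooth muscle and pericytes 0, 2, 8 and 6 had one in females and 4, 0, 0 and 0 in males, and of 10 endothelial markers 3, 8, 10 and 10 in females and 10, 3, 4 and 2 in males. Of 16 myofiber markers 13, 13, 15 and 14 had a start peak in females and 12, 7, 11 and 12 in males, with Atp2a1 and Casq1 marked in all 8 lists. Fibroblast, smooth muscle and endothelial markers thus had more start peaks in the 3 female prednisone lists than in the female vehicle list, as collagen genes had and as had all genes (25.0% with vehicle and 52.0%, 68.0% and 60.8% at days 4, 6 and 8). In males the smooth muscle and endothelial counts were highest with vehicle, as for collagen genes. The same held for all genes (50.3% with vehicle and 28.0%, 28.9% and 32.9% at days 4, 6 and 8). The fibroblast count in males was highest at day 4. Of 8 immune markers 0, 1, 2 and 2 had a start peak in females and 1, 0, 1 and 0 in males, and of 6 Schwann cell markers 3, 3, 5 and 4 in females and 4, 4, 3 and 3 in males. Of 6 adipocyte markers 1, 1, 2 and 4 had one in females and 1, 2, 1 and 1 in males. Of 5 satellite cell markers 0, 3, 2 and 4 had one in females and 2, 0, 0 and 0 in males, and of 5 tendon markers 1, 2, 5 and 3 in females and 1, 0, 0 and 1 in males. The part of other cells in the collagen peaks was not tested, and more cells of a type cannot be told apart from more acetylation per cell.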

How the data were processed

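H3K27ac ChIP-Seq of isolated quadriceps myofibers gave 8 peak lists, 1 per group, from 16 H3K27ac and 8 input libraries. The authors removed adaptors with homerTools, aligned the reads to mm10 with Bowtie2 (2.2.6 in the submitters' processing notes) and called histone-style peaks with HOMER findPeaks, against the input library, at a fold of 2 or more. The step that joined both libraries of a group is not given in the sources used here, and 0 columns of other samples were found. The deposited normalized tag count is a signal per 10 M tags (M, megatags). The deposited findPeaks score is a tag number not scaled for depth, used to rank peaks within a list. The deposited ratio of H3K27ac to input tags (fold over input) was used as given, the deposited peak length was used to give tags per kb, and the deposited p-value against input was not used.

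Depth was recovered from the steps of the tag counts. It was 27.5, 49.0, 30.6 and 39.7 M H3K27ac tags in females and 31.6, 7.52, 50.5 and 32.1 M in males (vehicle, day 4, day 6, day 8), with 13.4 to 34.8 M input tags. Fold intervals are exact binomial intervals of the 2 tag counts (95%). For an input count of 0 a cautious fold was also computed with 3 counts in its place, which is not a limit of the interval. Overlaps of at least 1 bp were scored with the window of 10 kb on either side of each start, the start span and the gene body, for 36208 curated autosomal transcripts of GRCm38.p6, the mm10 assembly. Shares over all 20021 genes stand beside those of the members, and no test was run because each group has 1 list.

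Every member could be named. Values per list are given for types I, III, IV, VI, XV and XVIII and for up to 8 others with a window peak in the most lists, and other names were chosen after their values were seen. Members, lists and alternatives were chosen with earlier results of these data known. The alternatives were lists of equal length, a fold of at least 4, 50% of the peak inside, a window of 5 kb, and peaks nearest to the member's start only. Overlap counts matched bedtools 2.31.1 for 3000 of 3000 simulated peaks, and 5 of 5 simulated depths were recovered. Software was matplotlib 3.10.9, samtools 1.23.1, pysam 0.24.0, scipy 1.17.1, pandas 2.3.3 and numpy 2.4.6 under Python 3.11.15.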

Additional observations from a re-analysis of the deposited data

Results flagged for a closer look

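The change from vehicle had opposite signs in females and males for both measures at the collagen genes, and the difference was not tested. The number of collagen genes with a peak within 10 kb of a start differed from vehicle by 20, 24 and 20 in females and by -22, -20 and -20 in males (days 4, 6 and 8). For peaks over a start the differences were 12, 29 and 24 in females and -4, -6 and -7 in males. With lists of equal length they were 2, 4 and 7 in females and 0, 0 and 0 in males within 10 kb, and 3, 7 and 4 in females and 3, 1 and 0 in males over a start. The share of all genes also rose in females, by 21.9, 32.8 and 26.4 percentage points within 10 kb, and in males it moved by -31.4, -29.1 and -28.7 points. For peaks over a start the share of all genes moved by 26.9, 42.9 and 35.7 points in females, against 28.6, 69.0 and 57.1 for the collagens. In males it moved by -22.3, -21.4 and -17.4 points, against -9.52, -14.3 and -16.7. With lists of equal length the share of all genes also rose in females from vehicle to each later day, for both measures. In males it then moved in both directions.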

How the results depend on the processing

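Of 166 recomputed values, 110 stayed within 1.5 times the reported count and 56 did not. The cause of these shifts was not tested. Lists of equal length moved 32 of 42 values and turned the male difference from vehicle in start peaks from -4 to 3 at day 4 and from -6 to 1 at day 6. They gave 9, 11, 13 and 16 genes with a peak within 10 kb in females (vehicle, days 4, 6 and 8) and 11 in vehicle-treated males, with 13, 12, 19 and 18 body counts in females and 21 in vehicle-treated males, and 5, 9 and 6 start counts in females at days 4, 6 and 8 and 4 in vehicle-treated males. In females 5, 10 and 9 genes were then gained and 3, 6 and 2 lost, and in males 5, 8 and 6 were gained and 5, 8 and 6 lost. PREs became 30 in females (9 present at day 6, 14 at day 8) and 49 in males (3 and 3). For the gains, losses and PREs of these lists no share over all genes is given. A fold of at least 4 gave start counts of 9 in females at day 4, 7 in vehicle-treated males and 3 in males at day 6, 1 gene lost in females at day 4, 1 gained and 14 lost in males at day 4 and 3 gained in males at day 8, 68 female PREs present at day 6, and 2 and 1 male PREs present at days 6 and 8. With 50% of the peak inside, start counts were 1, 4, 9 and 9 in females and 2, 4, 2 and 1 in males, 2 genes were gained in males at day 8, and 1 male PRE was present at day 8. A window of 5 kb gave 8 genes in vehicle-treated females, 1 lost in females at day 4 and 0 at day 8, and 3 gained in males at day 8. Keeping only peaks nearest to the member's start moved 0 of 20 values. No paired analysis was possible because each group has 1 list and the lists carry no replicate numbers. The male day 4 list, with 7.52 M tags, had the least depth to detect a peak.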
